A study of Homo sapiens with 4 samples.

Results

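JUND and PPP1R15B were examined together with 4 protein-coding genes that lie past their 3′ ends, which are IQCN, PDE4C and RAB3A on chromosome 19 and PLEKHA6 on chromosome 1. These 6 genes, of 58735 listed, were selected on their levels in the comparison described here, so their differences are given as a description without a test. All 6 are on the minus strand, and all 6 passed the filter on low values that left 16668 genes for testing, IQCN, PDE4C and PLEKHA6 only through their levels with GNE-987. RNA-seq was performed in cells labelled NB4, an acute promyelocytic leukemia line, with 2 libraries from cells labelled as untreated (control) and 2 from cells given GNE-987, labelled GNE987, at 25 nM for 24 h. The labels give the controls no treatment, while the study's methods name DMSO as the vehicle in control cells of its viability assay, and whether these controls received it is not given in the sources used here. Nothing says that replicates came from separate cultures, so P values measure only the spread between these libraries. Expression is given in FPKM, read fragments scaled to exon length and library size.

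RNA polymerase II does not stop at the annotated end of a gene. The nascent RNA is cut and polyadenylated downstream of a hexamer, most often AATAAA or ATTAAA in the DNA, and the polymerase then travels on before it is released. JUND encodes a member of the AP-1 transcription factor family and has a single exon, and PPP1R15B encodes the constitutive subunit that directs protein phosphatase 1 to eIF2 alpha and so counteracts the integrated stress response. Of the genes past their ends, IQCN encodes an IQ motif protein, PDE4C a phosphodiesterase that degrades cAMP, RAB3A a small GTPase of regulated exocytosis, and PLEKHA6 a pleckstrin homology domain protein.

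The ends of the genes are shown because the genes were chosen by their place past those ends. The following stretches come from the last 50 bases of each canonical transcript sequence of GENCODE release 44, 5′ to 3′. They are given with GRCh38 coordinates on the minus strand. They stop at the annotated end except for RAB3A and PPP1R15B, where the stretch was moved back to hold the hexamer. Capitals mark AATAAA, or ATTAAA where there is no AATAAA, so the ATTAAA near the end of the PPP1R15B stretch is in lower case. GOLT1A, which lies beyond PLEKHA6 on the same strand, is shown with the 6 genes.
JUND, chr19:18279694-18279723: ctggcgggctgggcggggcctggttcgctt
IQCN, chr19:18257098-18257127: ggtctaatgAATAAAgtcctccacagccta
PDE4C, chr19:18207965-18207994: agaaggaAATAAAattctgctgtatctcca
RAB3A, chr19:18196795-18196824: acccAATAAAgcgaatggaccatccatgtg
PPP1R15B, chr1:204403386-204403415: ttgtAATAAAtatatttgcaattattaaat
PLEKHA6, chr1:204218853-204218882: caatacaggaAATAAAatgaatggtttgta
GOLT1A, chr1:204198163-204198192: tgaagATTAAAttcccaagttgtgcgtgtg
JUND was the only one of these transcripts with neither hexamer in its last 50 bases. AATAAA was present there in 63.44% and ATTAAA in 17.98% of 20046 protein-coding canonical transcripts, and 77.36% held at least 1 of them. The 5193 bases between JUND and IQCN held neither hexamer on the sense strand, as did 274 of 3537 stretches of that length (7.75%) past protein-coding genes of chromosomes 1 and 19. The first AATAAA past JUND was 5.59 kb from its end, inside IQCN, and the first ATTAAA was at 26.0 kb. The gap of 25715 bases between the canonical end of PPP1R15B and PLEKHA6 held 21 AATAAA and 16 ATTAAA, the first of them 205 bases past that end. The annotated PPP1R15B gene reaches 6.889 kb past its canonical end, so this first match lies inside the gene. Distances past PPP1R15B are counted from the canonical end throughout.
PPP1R15B gap, chr1:204403159-204403188: gctgcaaagaaaATTAAActgggtattcac
These matches describe letters only, and cleavage at them was not measured.

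The promoters of IQCN and PLEKHA6 are shown because both genes had almost no reads in the control libraries. RefSeq windows around the annotated start were matched for all 6 genes (GRCh38.p14, minus strand, 5′ to 3′). Capitals mark TGACTCA, the AP-1 consensus, CCAAT and TATAAA on either strand, which do not overlap one another here.
IQCN, chr19:18274403-18274702: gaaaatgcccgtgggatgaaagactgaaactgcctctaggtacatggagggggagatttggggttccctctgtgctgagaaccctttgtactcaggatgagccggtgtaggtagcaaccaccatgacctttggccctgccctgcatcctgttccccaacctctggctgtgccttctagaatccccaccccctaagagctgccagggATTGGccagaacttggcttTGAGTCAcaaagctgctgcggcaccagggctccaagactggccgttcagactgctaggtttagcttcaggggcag
PLEKHA6, chr1:204359880-204360179: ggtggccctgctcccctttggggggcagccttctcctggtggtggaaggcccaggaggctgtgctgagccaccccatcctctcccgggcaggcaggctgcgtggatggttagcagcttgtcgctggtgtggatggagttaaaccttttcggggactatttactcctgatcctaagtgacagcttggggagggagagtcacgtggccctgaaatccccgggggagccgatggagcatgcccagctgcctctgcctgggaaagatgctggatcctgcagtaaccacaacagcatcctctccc
The IQCN window held TGACTCA, written TGAGTCA on the strand shown, and CCAAT, written ATTGG. The PLEKHA6 window held none of the motifs. It lies at the canonical start of PLEKHA6, chr1:204359929. The gene span used for distances begins farther upstream, at chr1:204377665, which the window does not cover. Over 34796 promoters of this length, 4.96% held TGACTCA, 34.62% CCAAT and 11.58% TATAAA.

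Facts of the 4 libraries bear on each value below. FPKM values are multiples of 1 read, from which 17808001 and 17588559 reads on genes were estimated in the control libraries and 11344126 and 11812948 with GNE-987, an estimate that rests on exon lengths found by search for 15793 of 32627 genes. Read rates and fold bounds below divide instead by the totals behind the deposited FPKM. Those totals came out at 23024012 and 22120718 in the controls and 8360488 and 8826052 with GNE-987. The intervals do not cover this choice of scaling. The median absolute log2 difference between replicates was 0.117 in the controls and 0.176 with GNE-987. The median log2 fold change of all tested genes was 0.17 in the deposited FPKM, -0.24 after quantile normalization, -0.57 when scaled to recovered reads and -1.61 when scaled to GAPDH. GAPDH itself was at 398 and 432 FPKM in the controls and at 1501 and 1499 with GNE-987. In the control libraries the labelled cell type's granule genes were low, with MPO at 0.0246 and 0 FPKM and ELANE and CTSG at 0 in both. PRTN3 was at 0.341 and 0.710 FPKM and AZU1 at 2.07 and 2.10 FPKM there. The 8 promyelocyte markers summed to 3.41 and 3.91 FPKM in the controls, against 27.6 and 26.5 with GNE-987. The 10 erythroid markers summed to 597 and 625.5 FPKM in the controls and 739 and 654.5 with GNE-987, with none at 0. Over all 16668 genes tested with limma, 33.6% were higher and 24.9% lower at P under 0.05 and a 2-fold change. Of the promyelocyte list 3 of 5 tested genes were higher and 1 lower with GNE-987, and of the erythroid list 5 of 10 were higher and 4 lower. Of those 3, MPO and CEBPE averaged 0.0123 and 0.0861 FPKM in the controls and entered the test only through their GNE-987 levels. CD33, the lower gene, averaged 0.372 FPKM with GNE-987 and entered only through its control levels. This nearly fixes their directions, so nothing is read from the promyelocyte count. The part of the cells' identity in the results below was not tested.

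JUND was expressed in every library and was higher with GNE-987. JUND (ENSG00000130522, chr19:18279694-18281622) had 65.6 and 67.0 FPKM in control cells and 624 and 659 FPKM with GNE-987. The means were 66.3 ± 0.968 and 642 ± 25.3 FPKM (SD, n = 2), a ratio of 9.67, and the groups did not overlap. JUND stood behind 467 and 444 genes by FPKM in the control libraries and behind 117 and 108 with GNE-987.

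IQCN went from almost no reads to a level among the highest of all genes. IQCN (ENSG00000130518, chr19:18257098-18274500) begins 5.194 kb past the end of JUND. Control cells gave 0.00474 and 0.00988 FPKM of it, from 1 and 2 reads. GNE-987-treated cells gave 354.5 and 362.6 FPKM, from 27133 and 29295 reads. The read rate was 49407 times that of the controls, with an exact 95% Poisson interval from 16905 to 239588 that covers counting error only and is wide because the controls held so few reads. In the GNE-987 libraries IQCN took 0.239% and 0.248% of the reads on genes, and 168 and 163 genes had higher FPKM. Among the tested genes 1 had a larger log2 difference.

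PDE4C was the lowest of the 6 genes with GNE-987. PDE4C (ENSG00000105650, chr19:18207965-18248200) begins 31.5 kb past JUND and had 0.0133 and 0.0276 FPKM in the controls, from 2 and 4 reads. It was at 2.78 and 3.55 FPKM with GNE-987, from 152 and 205 reads, a read rate 156 times that of the controls (exact 95% interval 71.1 to 429). Its body overlaps that of the gene model ENSG00000285188 on the same strand, and that of ENSG00000268650 on the other. The strand setting of the counting, and how it handled genes that overlap on the same strand, are not given in the sources used here. Reads in shared stretches could therefore belong to either gene or have been left out, so the PDE4C level may be too high or too low.

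RAB3A was the only one of the 4 genes past the ends that the control cells already expressed above 0.5 FPKM. RAB3A (ENSG00000105649, chr19:18196784-18204042) begins 75.7 kb past JUND. It was at 0.836 and 0.647 FPKM in the controls and 7.24 and 8.29 FPKM with GNE-987, from 35 and 26 against 110 and 133 reads. The read rate was 10.5 times that of the controls (exact 95% interval 7.87 to 14.1), close to the ratio for JUND. Its 3′ end overlaps MPV17L2 on the opposite strand, which had 15.2 ± 0.187 FPKM in the controls and 20.1 ± 2.43 FPKM (SD, n = 2) with GNE-987.

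PPP1R15B differed least of the 6 genes. PPP1R15B (ENSG00000158615, canonical transcript chr1:204403381-204411817) was at 22.96 and 24.4 FPKM in the controls and 37.1 and 38.1 FPKM with GNE-987. The means were 23.7 ± 1.03 and 37.6 ± 0.732 FPKM (SD, n = 2), a ratio of 1.59 and a log2 difference of 0.66, which turned to -1.18 when scaled to GAPDH and to -0.11 when scaled to recovered reads. Its direction therefore depends on the scaling, and its share of the reads on genes was 0.0155% and 0.0161% in the controls against 0.0143% and 0.0149% with GNE-987.

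PLEKHA6 was above PPP1R15B in both GNE-987 libraries although the controls held a single read of it. PLEKHA6 (ENSG00000143850, chr1:204218853-204377665) begins 25.7 kb past the canonical end of PPP1R15B, has 23 exons in its canonical transcript and ends 184.5 kb past PPP1R15B. It was at 0.00526 and 0 FPKM in the controls, on 1 and 0 reads, and GNE-987 brought 116 and 118.9 FPKM, on 7999 and 8657 reads. The read rate was 43751 times that of the controls, with an exact 95% interval from 7851 to 1728180. Among the tested genes 5 had a larger log2 difference.

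**Figure D1:**
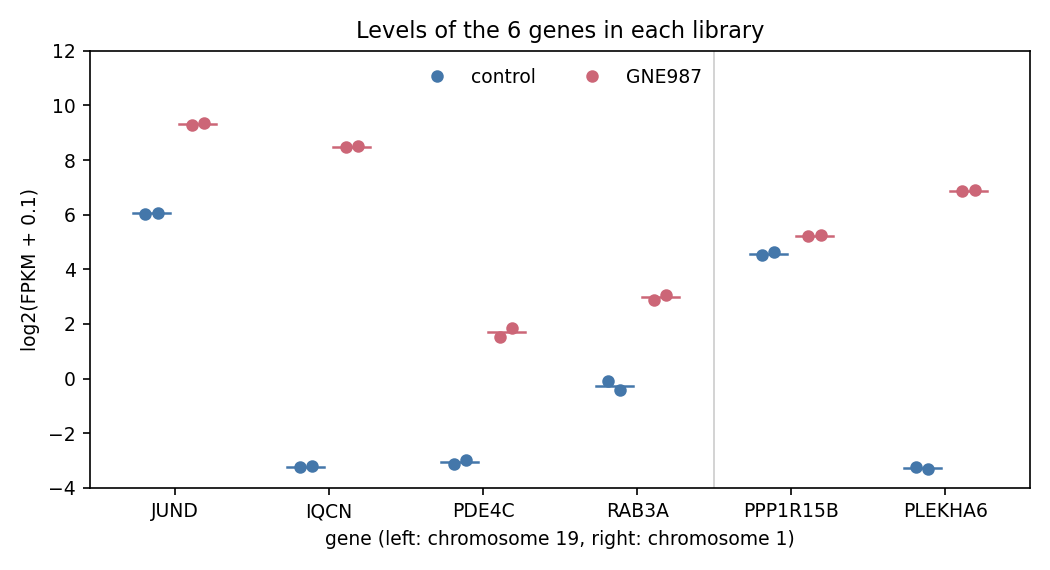
Level of the 6 genes in each library on the log2(FPKM + 0.1) scale, with points for the 2 control and 2 GNE987 libraries and short lines for group means. IQCN and PLEKHA6 lie near the bottom of the scale in the controls and between 116 and 362.6 FPKM with GNE-987, while PPP1R15B, at 22.96 to 38.1 FPKM, moves least and turns negative (log2 -1.18) when scaled to GAPDH and (log2 -0.11) to recovered reads.

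In the deposited FPKM both GNE-987 libraries were above both control libraries for all 6 genes, a pattern found in 47.1% of tested genes, and 5 of the 6 were over 2-fold higher, as were 36.4% of tested genes. Since the genes were picked for this, nothing is read from those counts. The 5 genes stayed over 2-fold higher under each scaling tried. On the log2(FPKM + 0.1) scale the differences were 11.71 for IQCN, 10.16 for PLEKHA6, 4.75 for PDE4C, 3.27 for JUND, 3.23 for RAB3A and 0.66 for PPP1R15B, the last of which is negative in the scalings named above. The values of IQCN, PLEKHA6 and PDE4C depend on the pseudocount because their controls are near 0.

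Set against the gene before them, the genes past the ends differed in level. As a percentage of the FPKM of JUND, IQCN was at 0.00723% and 0.0147% in the controls and at 56.9% and 55.0% with GNE-987. PDE4C was at 0.0202% and 0.0412% in the controls and 0.445% and 0.538% with GNE-987. RAB3A stayed in 1 range, with 1.27% and 0.965% in the controls and 1.16% and 1.26% with GNE-987. PLEKHA6 was at 0.0229% and 0% of the FPKM of PPP1R15B in the controls and at 312.8% and 312.0% with GNE-987. These percentages divide 2 levels per length of exon, and the coverage between the genes was not analysed here.

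The neighbourhood of both genes was read next, over 45 annotated genes within 250 kb that are not among the 6, of which 44 are in the deposited table. These neighbours were taken by distance alone and were tested in the same fit as all genes. The shares of 33.6% higher and 24.9% lower among all tested genes stand for 5602 and 4148 genes, which became 4235 and 5464 after quantile normalization, 4178 and 6656 when scaled to recovered reads and 3034 and 9734 when scaled to GAPDH. Of the 21 listed past the 3′ ends, 16 had both GNE-987 libraries above both controls and 1 had both below, and of the 22 before the 5′ ends 6 were above and 7 below. Among all tested genes 47.1% had both above. The listed neighbours include untested genes, for which no such share was computed, so nothing is read from these counts. Past the 3′ ends 9 of 11 tested genes were higher and 0 lower, and before the 5′ ends 2 of 11 were higher and 5 lower. Of the 9, however, 8 averaged under 0.5 FPKM in the controls and so entered the test only through their GNE-987 levels, which nearly fixes their direction, and 4 overlap PLEKHA6 or PDE4C, so nothing is read from the count. The count of 0 became 1 with quantile normalization or scaling to recovered reads, 2 with scaling to GAPDH and 1 without GNE987 replicate 1. The genes of a locus share a region and are not independent.

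On chromosome 1 the 6 tested genes past PPP1R15B, on either strand, had at most 1 read in each control library and were tested only because of their levels with GNE-987. GOLT1A, which encodes a Golgi transport protein, begins 189 kb past PPP1R15B and was listed at 0 FPKM in both controls and at 53.7 and 52.8 FPKM with GNE-987, at least 910-fold higher against a floor of 3 reads over the control group (adjusted P = 9.49e-05, limma). KISS1, the gene of the peptide hormone kisspeptin, begins 207 kb past and was at 0 in both controls and at 47.7 and 56.1 FPKM with GNE-987, at least 555-fold higher (adjusted P = 9.61e-05, limma).

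The remaining 4 of those genes are noncoding or pseudogenes. The processed pseudogene ENSG00000237848, 8.607 kb past the canonical end of PPP1R15B and before PLEKHA6, was at 0 in both controls. With GNE-987 it was at 39.9 and 42.1 FPKM, at least 144-fold higher. Inside PLEKHA6, LINC00628 was at 0 in both controls and 23.8 and 25.1 FPKM with GNE-987, at least 474-fold higher, and ENSG00000231691, on the opposite strand, was at 0 and then at 9.39 and 9.40 FPKM, at least 189-fold higher. RPL21P19, a ribosomal protein pseudogene inside PLEKHA6, was at 0.0899 and 0.0936 FPKM in the controls, 1 read each, and at 4.21 and 2.35 FPKM with GNE-987. Adjusted P values of the 4 genes ran from 9.61e-05 to 0.00119 (limma). Reads of a pseudogene may be shared with its parent gene, and those of genes inside PLEKHA6 cannot be told apart from PLEKHA6 where they overlap.

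PPP1R15B-AS1 spans PPP1R15B on the opposite strand, with its first exon beyond the 3′ end of PPP1R15B and its remaining exons upstream of the start. Close to the upstream end of the PLEKHA6 span at chr1:204377665, PPP1R15B-AS1 begins at chr1:204377850 and runs the other way from PLEKHA6. It was at 0 and 0.0930 FPKM in the controls and at 54.4 and 64.6 FPKM with GNE-987, from 221 and 277 reads (log2 fold change 8.74, SE 0.37, adjusted P = 0.000264, limma). It too entered the test only through its GNE-987 levels, which nearly fixes its direction. On the other side of PPP1R15B, MDM4, a regulator of p53, was at 4.29 and 4.30 FPKM in the controls and at 0.532 and 0.556 FPKM with GNE-987 (log2 fold change -2.77, SE 0.12, adjusted P = 0.000287, limma). PIK3C2B, the nearest gene on that side at 10.8 kb and named after its values were seen, was at 0.346 and 0.365 FPKM in the controls and 0.330 and 0.373 with GNE-987, below the filter.

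On chromosome 19, 5 of 13 neighbours past JUND were tested and 3 were higher, the first 2 named here having entered the test only through their GNE-987 levels. ENSG00000284797, between IQCN and PDE4C on the same strand, was at 0 in both controls and at 4.23 and 4.21 FPKM with GNE-987, at least 71.8-fold higher (adjusted P = 0.000243, limma). ENSG00000285188, whose model overlaps PDE4C, was at 0.00726 and 0 FPKM in the controls, 1 read in all, and had 70 and 53 reads with GNE-987 (adjusted P = 0.00166, limma). The third, ENSG00000273654, at 248 kb on the opposite strand, was at 0.625 and 0.859 FPKM in the controls and 1.58 and 1.70 with GNE-987. Its log2 fold change of 1.06 became -0.64 when scaled to GAPDH, and it did not pass without control replicate 1 or without either GNE987 replicate. MPV17L2, on the opposite strand from RAB3A, did not pass the fold threshold (log2 fold change 0.40, and -1.44 when scaled to GAPDH and -0.38 when scaled to recovered reads).

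Before the 5′ end of JUND the genes changed in both directions. LSM4, a subunit of the RNA decay and splicing LSM complexes on the same strand, was at 77.1 and 75.2 FPKM in the controls and 206 and 205 with GNE-987, a log2 fold change of 1.43 (SE 0.04, adjusted P = 0.000147, limma) that was -0.42 when scaled to GAPDH. GDF15, a stress-induced cytokine gene, was at 20.7 and 19.5 FPKM in the controls and 8.88 and 9.28 FPKM with GNE-987 (log2 fold change -1.14, SE 0.06, adjusted P = 0.000426, limma). SSBP4, ELL and the microRNA gene MIR3189, the last on 5 and 1 control reads and tested only through them, were also lower. The microRNA gene MIR3188, 0.455 kb before the start of JUND on the other strand, was called higher on 3 and 1 reads with GNE-987. MIR3188 was tested only because of those reads, which nearly fixes its direction. SSBP4 was at 41.5 and 39.5 FPKM in the controls and 18.9 and 17.4 with GNE-987. ISYNA1, the inositol synthase gene, was at 93.0 and 88.1 FPKM in the controls and 160 and 168 with GNE-987, under the 2-fold threshold, and PGPEP1 was at 16.4 and 18.2 against 10.6 and 11.5 FPKM.

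**Figure D2:**
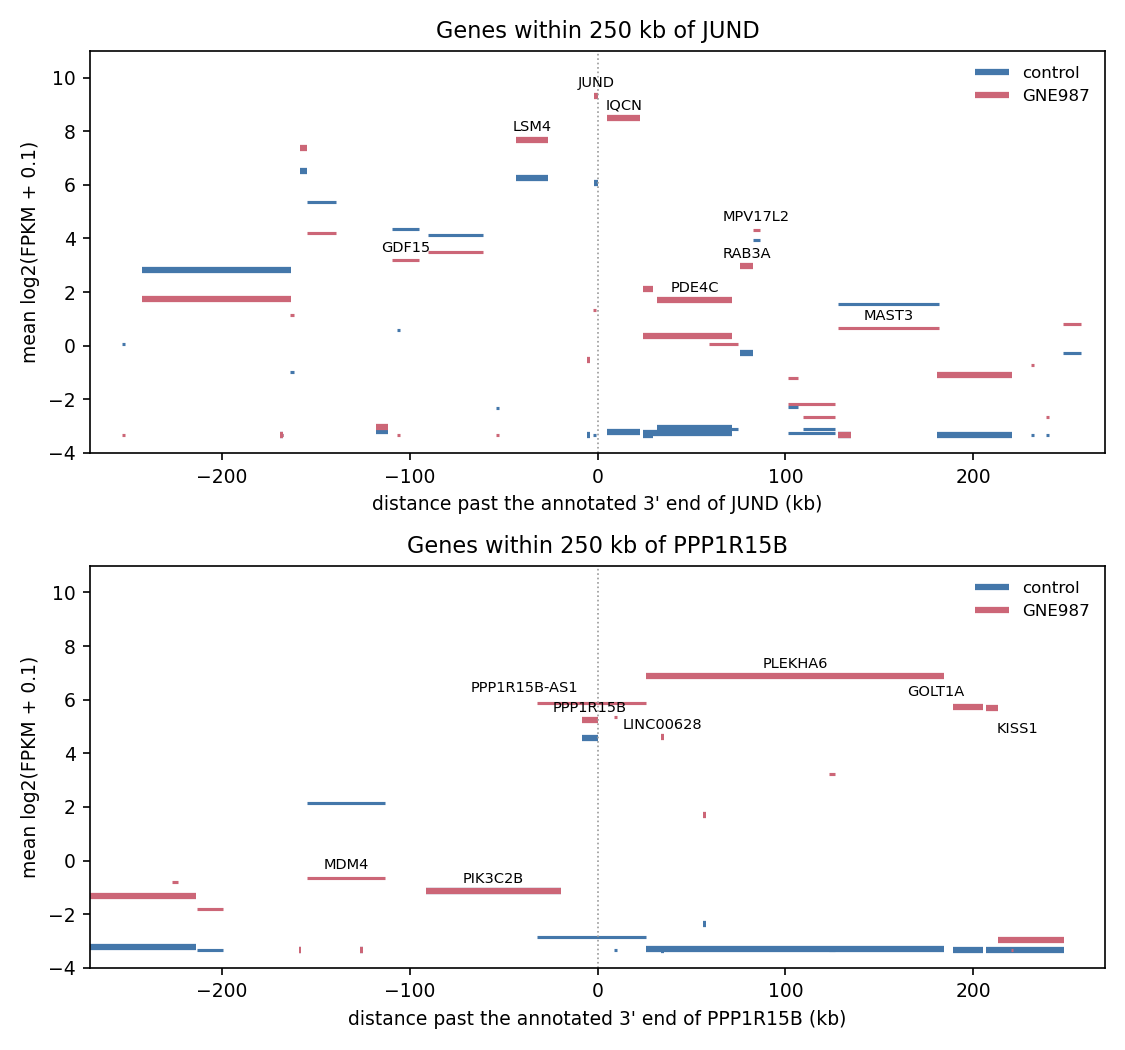
Mean log2(FPKM + 0.1) of annotated genes in the control and GNE987 libraries (n = 2 each) against the distance in kb past the canonical 3′ end of JUND (top) and PPP1R15B (bottom), with each line spanning the gene, or for PPP1R15B its canonical transcript. Thick lines are genes on the same strand and thin lines genes on the other, short genes are drawn wider than they are, control lines at the same level as a GNE987 line are hidden by it, and selected genes are labelled. Past PPP1R15B the GNE987 lines of PLEKHA6, GOLT1A and KISS1, the last at 207 kb, stand above their control lines, and for PPP1R15B itself that order turns when scaled to GAPDH or to recovered reads.

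Genes related in function to JUND and PPP1R15B lie elsewhere in the genome. Of 13 AP-1 family genes other than JUND, 8 were tested, of which 4 were higher, 1 was lower and 3 were not called, with a median log2 fold change of 1.58 against 0.17 for all tested genes, of which 33.6% were higher and 24.9% lower. JUN, the prototype of the family, was at 4.22 and 3.95 FPKM in the controls and 499 and 531 FPKM with GNE-987 (log2 fold change 6.94, SE 0.06, adjusted P = 8.96e-05, limma). ATF3, a stress-induced partner of JUN, was at 4.31 and 4.27 FPKM in the controls and 89.2 and 91.5 with GNE-987 (log2 fold change 4.36, SE 0.05). JUNB was at 22.7 and 19.3 against 93.2 and 96.1 FPKM. FOS was at 0.885 and 0.307 against 3.51 and 2.59 FPKM, and did not pass without either GNE987 replicate. FOSL1 was the member that was lower, at 13.0 and 12.6 FPKM in the controls and 2.60 and 2.40 with GNE-987 (log2 fold change -2.31, SE 0.08). FOSL2, ATF2 and ATF7 were not called, and when scaled to GAPDH only 2 of the list were higher and 3 lower.

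All 18 genes of the list around eIF2 alpha phosphorylation were tested, with 1 higher, 5 lower and 12 not called, and a median log2 fold change of -0.49 against 0.17 for all tested genes. The 27.8% that were lower is near the 24.9% of all tested genes, while the 5.6% that were higher is below their 33.6%. PPP1R15A, the stress-induced paralogue of PPP1R15B, was the gene that was higher, at 14.0 and 12.7 FPKM in the controls and 54.4 and 49.3 with GNE-987 (log2 fold change 1.95, SE 0.08, adjusted P = 0.000279, limma), which was 0.10 when scaled to GAPDH. The kinases EIF2AK2 and EIF2AK4, the exchange factor subunits EIF2B3 and EIF2B5 and the phosphatase subunit PPP1CC were lower. EIF2B5 was at 15.6 and 16.0 FPKM in the controls and 3.46 and 3.56 with GNE-987 (log2 fold change -2.14, SE 0.06). EIF2B3 and PPP1CC were near the 2-fold threshold, at log2 fold changes of -1.03 and -1.01. ATF4, whose translation rises when eIF2 alpha is phosphorylated, was at 116 and 118 FPKM in the controls and 142 and 134 with GNE-987, and DDIT3 at 8.88 ± 1.59 against 12.4 ± 0.726 FPKM (SD, n = 2). The number of lower genes depended on the scaling and was 17 when scaled to GAPDH and 12 when scaled to recovered reads.

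Of 9 family members of the genes past the ends 4 were tested, of which 1 was higher and 2 lower, against 33.6% higher and 24.9% lower among all tested genes. PLEKHA7, the higher gene, was at 0.00791 and 0.00823 FPKM in the controls, 2 reads each, and 4.99 and 4.53 FPKM with GNE-987 (adjusted P = 0.000227, limma). It entered the test only through its GNE-987 levels, which nearly fixes its direction, so nothing is read from that call. PDE4A was at 11.1 and 11.4 FPKM in the controls and 2.11 and 2.10 with GNE-987 (log2 fold change -2.37, SE 0.07), and PLEKHA5 was lower from 1.32 and 1.45 to 0.476 and 0.559 FPKM. PDE4B, PDE4D, RAB3B, RAB3C and RAB3D stayed under the filter in the mean of all libraries, and RAB3B was at 0.0135 and 0.0141 against 0.419 and 0.503 FPKM. Among 4 genes whose products bind or phosphorylate JUND, 3 were tested. MEN1, which encodes menin, was lower, at 16.6 and 17.1 FPKM in the controls and 5.01 and 4.40 with GNE-987 (log2 fold change -1.82, SE 0.09), and the kinase genes MAPK8 and MAPK9 were not called.

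**Figure D3:**
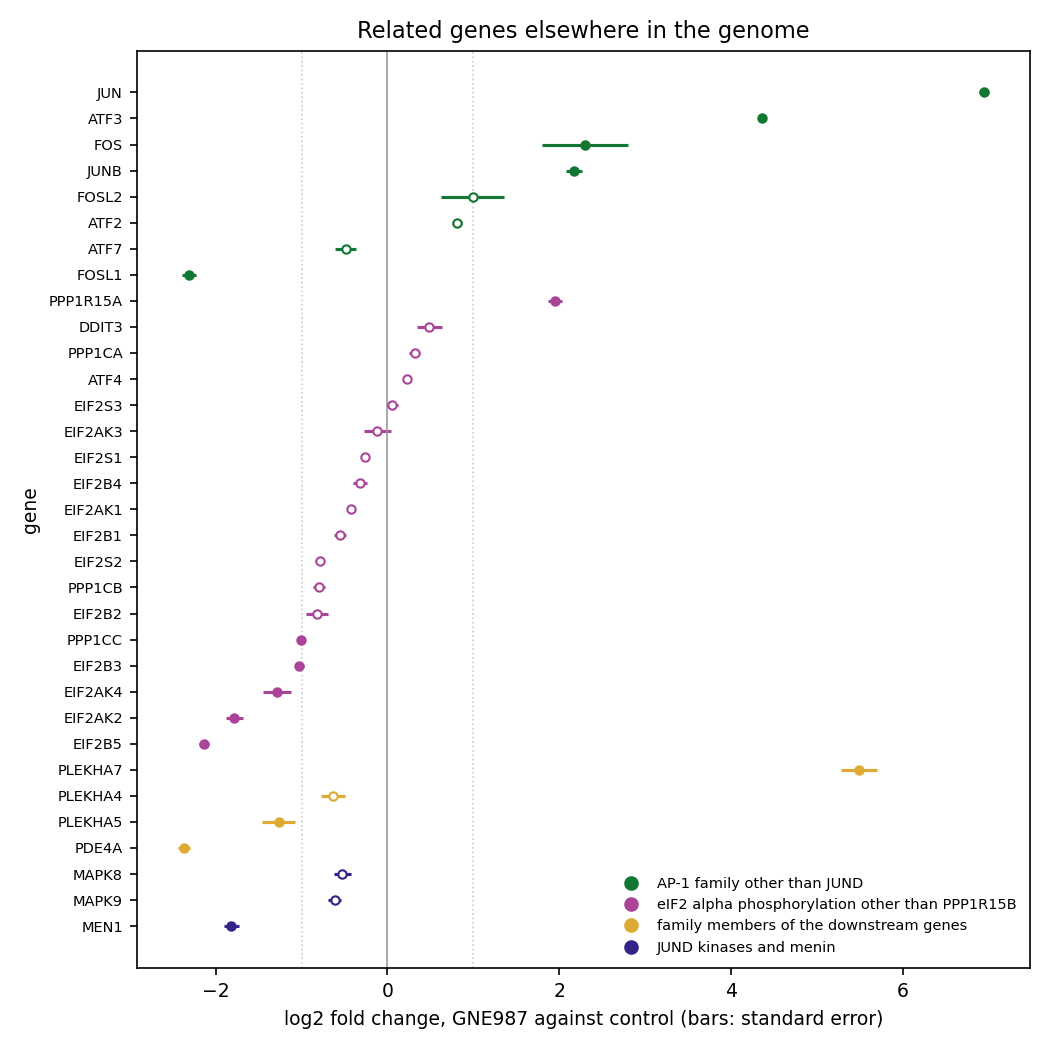
Log2 fold change, GNE987 against control (limma, deposited FPKM), of the tested genes of 4 lists, with standard errors as bars. Filled points passed P under 0.05 and a 2-fold change and open points did not, and dotted lines mark 2-fold. JUN and PLEKHA7 lie farthest to the right, at 6.94 and 5.49, and PDE4A farthest to the left, at -2.37. PLEKHA7 was tested only because of its GNE-987 levels, which nearly fixes its direction.

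The first gene past the end was read for the expressed genes of the AP-1 and eIF2 alpha lists. Of 19 such genes with at least 10 FPKM in either group, 11 had a gene on the same strand within 30 kb downstream and 12 had one upstream. Past the end 4 of 8 tested genes were higher and 2 lower, and before the start 2 of 8 were higher and 2 lower, against 33.6% higher and 24.9% lower among all tested genes. HVCN1, a proton channel gene past PPP1CC, was at 0.188 and 0.208 FPKM in the controls and 4.02 and 4.21 with GNE-987, although PPP1CC was lower. HVCN1 entered the test only through its GNE-987 levels, which nearly fixes its direction. ARHGAP9, past DDIT3, was at 0.737 and 0.794 FPKM in the controls and 4.83 and 4.84 FPKM with GNE-987. NUCB1, past PPP1R15A, was at 28.0 and 25.8 against 60.6 and 59.1 FPKM, and was lower when scaled to GAPDH (log2 fold change -0.70). The pseudogene ENSG00000226499, past EIF2B3, was at 0.804 and 1.12 against 8.86 and 14.7 FPKM.

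Past the AP-1 genes that were higher, few genes could be read. No gene lay within 30 kb past JUN on its strand. The gene past JUNB, ENSG00000267062, was listed at 0 in all 4 libraries. GARIN4, 3.697 kb past ATF3, was at 0 in both controls and at 0.830 and 0.393 FPKM with GNE-987, from 16 and 8 reads.

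The levels that chose IQCN and PLEKHA6 can be placed among all genes silent in the controls, as a description. Of 38071 genes under 0.1 FPKM in both control libraries, 176 reached at least 10 FPKM in both GNE-987 libraries, and 64 of these were protein-coding. At least 50 FPKM was reached by 20 genes, of which 5 were protein-coding. These 5 were IQCN, PLEKHA6, GOLT1A, the integrin gene ITGAM and IDI2, of which IQCN and PLEKHA6 were picked for these levels.

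By the Euclidean distance over the 4 libraries in log2(FPKM + 0.1), the gene nearest to IQCN was MIR3648-2, a microRNA gene of chromosome 21 without control reads. The nearest to PLEKHA6 was RNU4-2, a small nuclear RNA gene at 0 in both controls and at 104 and 112 FPKM. The nearest protein-coding gene to JUND was the linker histone gene H1-10, at 65.5 and 63.9 FPKM in the controls and 758 and 832 with GNE-987. PDE4C was nearest to ENSG00000261662 and IFFO1, RAB3A to ANKRD34A and KLHL28, and PPP1R15B to AHCTF1 and OTUD5. None of those with a place in the annotation lies within 250 kb of JUND or PPP1R15B. MIR3648-2 and the small nuclear RNA genes have near-identical copies that could share reads.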

How the data were processed

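Libraries were made from total RNA with the Illumina TruSeq RNA kit named in the labels. The authors filtered the reads and mapped them with HISAT (HISAT2 2.0.5 and build hg38 in the submitters' processing notes), and deposited 1 FPKM value for each gene in each library. The counting program, annotation and strand setting are not given in the sources used here. Groups and replicate numbers were taken from the labels, and dose and time from the legends of the study.

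The 58735 identifiers were matched to GENCODE release 44 (58207 found). The log2(FPKM + 0.1) values of genes averaging 0.5 FPKM or more across the 4 libraries were compared between groups by limma 3.58.1 under R 4.3.3 (empirical Bayes with trend, no replicate block), with Benjamini-Hochberg adjustment over all 16668 genes. Genes were called at an unadjusted P under 0.05 and a 2-fold change. A count test was not used, because the values are not counts. Reads were recovered by finding the exon length at which all 4 FPKM values are whole reads to within 0.001 of a read, and 51.4% of 32627 genes were whole at the GENCODE length. The read rate of the groups, in reads per total behind the deposited FPKM, was compared with an exact conditional interval at the 95% level. Promoters were from RefSeq. Scripts ran in Python 3.11.15 with scipy 1.17.1 and were tested on simulated data.

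The genes and lists were chosen with earlier results of these data known, so the 6 genes have no test. Genes were named if they were among the 6, were neighbours that were called or reached 10 FPKM, were on a list or first past the end of a listed gene, or were among the 2 nearest genes of each member. Alternatives were other pseudocounts, filters, scalings and an adjusted threshold, a replicate block, and each library left out. Some items are withheld and not reported here.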

Additional observations from a re-analysis of the deposited data

How the results depend on the processing

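The 5 genes other than PPP1R15B were over 2-fold higher under all 13 alternatives, and PPP1R15B turned to -1.18 when scaled to GAPDH and -0.11 when scaled to recovered reads. Of 36 other genes named with a test, 23 had the same call throughout. Scaling to GAPDH reversed ENSG00000273654 (-0.64), MPV17L2 (-1.44), LSM4 (-0.42) and NUCB1 (-0.70), and scaling to recovered reads reversed MPV17L2 (-0.38). The cause was not tested.

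Without the filter 8757 genes were higher, with 4 higher before the 5′ ends, 3 AP-1 genes lower and 2 family members higher. Scaled to GAPDH 3034 genes were higher and 9734 lower. In that scaling 2 neighbours past the ends were lower and 1 before was higher, 2 AP-1 genes were higher and 3 lower, 0 eIF2 alpha genes were higher and 17 lower, 3 genes of JUND kinases and menin were lower, and 2 first genes past and 0 before list genes were higher. Scaled to recovered reads 6656 genes were lower, 1 neighbour past the ends was lower, 1 before was higher, 2 AP-1, 12 eIF2 alpha and 3 genes of JUND kinases and menin were lower and 1 first gene before list genes was higher. Quantile normalization gave 1 lower neighbour past the ends, 1 higher before, 8 lower eIF2 alpha genes and 1 higher first gene before list genes. A pseudocount of 1 gave 2 lower eIF2 alpha genes, 1 lower family member and 1 higher first gene before list genes, and a mean of at least 1 FPKM gave 1 lower family member.

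With 1 library left out the lone library of its group is assumed to vary like the others. Neighbours past the ends called lower then numbered 0 to 1 (1 without GNE987 replicate 1), those before the ends called lower 3 to 5 (3 without GNE987 replicate 1), and higher first genes before list genes 1 to 2 (1 without control replicate 1).

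The correlation of same-numbered deviations was 0.00537, which cannot show whether the libraries were paired. With the replicate number entered as a block, 5667 genes were higher and 4186 lower, and among neighbours before the 5′ ends 3 were higher. None of the 36 calls changed with the block.

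Values resting on 1 to 3 reads, as in the controls of IQCN and PLEKHA6, are limited by depth.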
